A study of Mus musculus with 10 samples.

Results

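The genes described here encode the enzymes that write or erase methyl and acetyl groups on histones and methyl groups on DNA, together with bromodomain proteins that read acetylated histones. The histone deacetylases are not among them. Members were taken by symbol (the Kat, Kdm, Kmt, Dnmt, Tet1 to Tet3, Prmt, Setd and Brd families, and *Ep300*, *Crebbp*, *Ezh1*, *Ezh2*, *Eed*, *Suz12*, *Dot1l*, *Ehmt1*, *Ehmt2*, *Suv39h1*, *Suv39h2* and *Nsd1*), which gave 79 of the 21792 genes listed for each mouse. By textbook role, 46 were writers (the non-catalytic subunits *Eed* and *Suz12* included), 21 were erasers and 7 were readers. The other 5 got no role: the antisense genes *Dnmt3bos*, *Dnmt3aos* and *Kdm6bos*, the pseudogene *Kat2b-ps* and *Kdm4dl*. The samples were kidney cortex from 10 wild-type (WT) mice, taken at day 28. The study's methods give male C57BL/6 mice aged 8 weeks for this model. The 4 sham mice were given PBS and the 6 AAN mice a single intraperitoneal dose of 5 mg/kg aristolochic acid, a plant nephrotoxin that injures proximal tubules. AAN stands for aristolochic acid nephropathy, a model of tubular injury followed by fibrosis.

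Writers, erasers and readers set how accessible a gene is to the transcription machinery. Polycomb repressive complex 2 (EZH1 or EZH2 with EED and SUZ12) methylates lysine 27 of histone H3 at silenced genes, SUV39H1, SUV39H2, EHMT1 and EHMT2 methylate lysine 9, and the KMT2 and SETD1 enzymes methylate lysine 4 at promoters and enhancers. The KDM proteins remove these marks, DNMT proteins methylate cytosine and TET proteins oxidize that mark, while acetyltransferases such as p300 and CBP open chromatin and BET proteins bind the acetylated tails. Inhibitors of several of these enzymes are studied in kidney fibrosis.

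Levels are FPKM, that is, fragments scaled to gene model length and to library size, so they can be compared between genes. Depth was 13.4 to 17.5 M fragments per mouse. Sham and AAN mice were set against each other by limma on log2(FPKM + 0.1), two-sided, with Benjamini-Hochberg adjustment over the 17129 genes whose mean reached 0.1 FPKM. A gene is called higher or lower when it reached an adjusted p of 0.05 or less with a 2-fold or larger change. In the deposited values most genes were higher in AAN mice, with a median log2 fold change of 0.75 over all genes, so members are read against this median, and where it matters also after rescaling by the median of ratios, which brought the median of all genes to 0.06. Of the 74 members tested, 72 had a log2 fold change above 0 in the deposited values, 54 after the median of ratios and 39 after quantile normalization. Over all genes tested, 82.3%, 53.1% and 44.9% were above 0 on these scales. The mitochondrial share of all FPKM was 39.5% to 61.4% in the sham group and 21.4% to 55.0% in the AAN group. With each mouse scaled to the same total without mitochondrial genes, 29 members were called higher, against 28 in the deposited values. The median of all genes was then 0.77. All 8 leukocyte markers were higher in AAN mice (summed level 8.74 to 17.0 FPKM in sham mice and 189 to 547 FPKM in AAN mice), as were all 10 G2/M phase genes and 9 of 10 S phase genes, while 6 of 8 proximal tubule markers were lower (2014 to 4184 FPKM against 569 to 2158 FPKM). In whole cortex, more cells of a type and more RNA per cell cannot be told apart. The part of the cell type and cell cycle shifts in the members' values was not tested.

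Of the 79 members, 74 had a mean of at least 0.1 FPKM and were tested. Of these, 28 (37.8%) were higher in AAN mice and 0 were lower, where over all genes tested 35.8% were higher and 3.43% lower. At an unadjusted p under 0.05 the count of lower members was also 0. The share of members called higher was therefore near the background. An adjusted p of at most 0.05 without a fold limit was reached by 58 of the 74 members, all higher, where 55.4% of all genes were higher by this rule. In 48 members (64.9%) the lowest AAN mouse was above the highest sham mouse in the deposited values, against 40.3% of all genes. After the median of ratios this held for 15 members, and in 3 the highest AAN mouse was below the lowest sham mouse. The share of all genes on that scale is not given here. The median log2 fold change of the members was 0.90, and 53 of 74 lay above the median of all genes. *Dnmt3bos* and *Tet1* had sham means under the filter and were tested because of their AAN levels. *Dnmt3bos* is among the 28 called higher.

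The largest changes among the members with a role were in 3 SET domain members grouped as writers. *Suv39h1* (ENSMUSG00000039231, GRCm38 chromosome X, 8061171 to 8074760, minus strand), whose product trimethylates H3K9 in constitutive heterochromatin, was at 0.728, 0.701, 0.612 and 0.705 FPKM in the sham mice B607, B634, B636 and H249, and at 2.33 to 3.51 FPKM in AAN mice (median 2.97). The sham mice lay close together and every AAN mouse was far above them. The log2 fold change was 1.95 (SE, the standard error, 0.17, limma adjusted p = 1.64e-06), which is 1.20 above the median of all genes. *Setd7* (ENSMUSG00000037111, chromosome 3, 51515319 to 51560879, minus strand), a lysine methyltransferase of H3K4 and of several non-histone proteins, was at 2.29, 0.900, 1.20 and 1.43 FPKM in the same sham mice and at 4.58 to 6.59 FPKM in AAN mice (median 5.42). The lowest AAN mouse was above the highest sham mouse, B607. Its log2 fold change was 1.93 (SE 0.23, limma adjusted p = 2.23e-05). *Setd5* (ENSMUSG00000034269, chromosome 6, 113077365 to 113153435, plus strand), a SET domain protein that acts with co-repressor complexes, was at 1.45, 0.382, 0.484 and 0.632 FPKM in sham mice and at 2.32 to 2.67 FPKM in AAN mice (median 2.57). Its AAN mice were the least spread relative to their mean among these genes, and its log2 fold change was 1.81 (SE 0.28, limma adjusted p = 0.000172). For each of these 3 genes the exact permutation test (two-sided, 210 splits of the mice) gave p = 0.00476, the smallest this design allows. The genes were picked by the size of their change, and 40.3% of all genes also had all AAN mice above all sham mice. This p therefore adds no support to their rank.

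**Figure D1:**
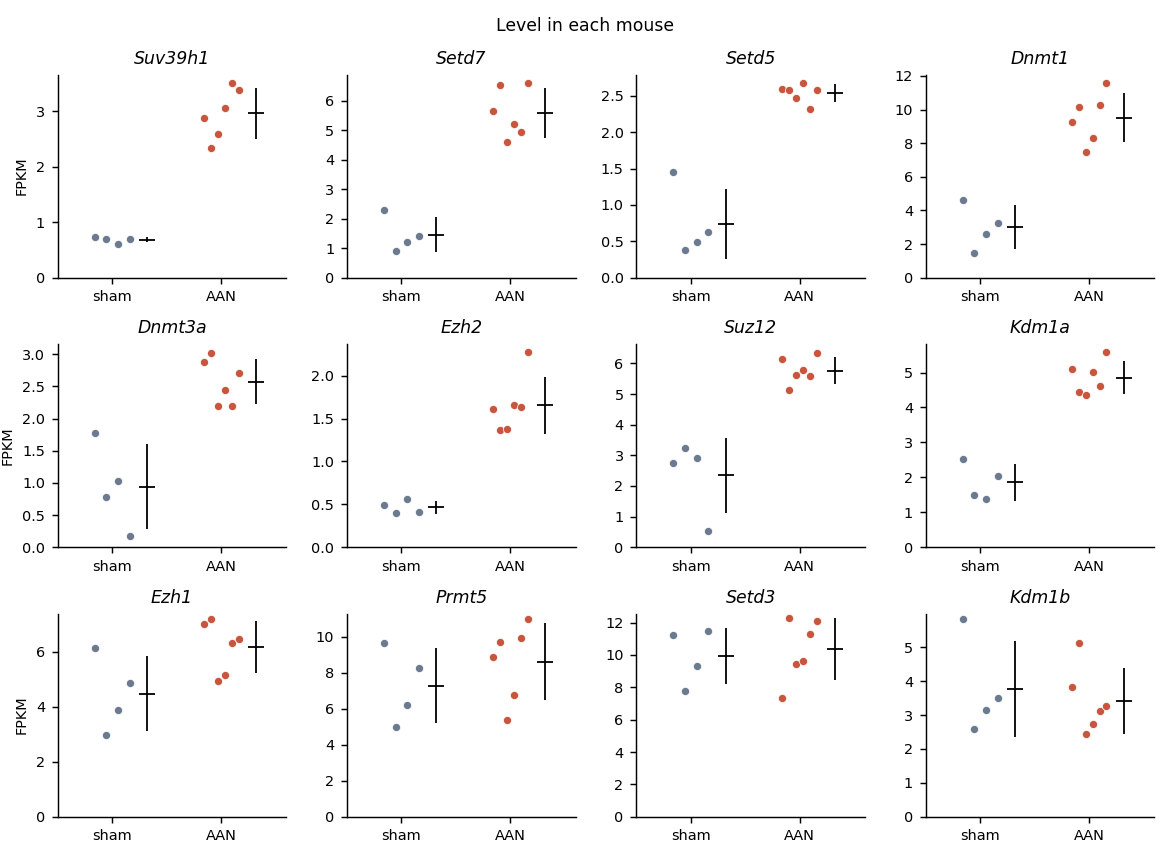
Level in FPKM (linear axis from 0) of 12 members in each sham (grey, n = 4) and AAN (red, n = 6) mouse, with the mean and SD as a bar at the right of each group. For the 8 genes from *Suv39h1* to *Kdm1a* the groups do not overlap, whereas *Ezh1*, *Prmt5*, *Setd3* and *Kdm1b* overlap between the groups. After the median of ratios (not drawn) *Dnmt3a* and *Suz12* overlap too, and the AAN mice of *Setd3* and *Kdm1b* all lie below the sham mice.

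The 3 DNA methyltransferases tested were all higher in AAN mice, where 35.8% of all genes were. Their median log2 fold change was 1.65, though *Dnmt3b* was at -0.023 after quantile normalization. After the median of ratios 0 of the 3 passed both limits, and *Dnmt1* alone had an adjusted p of at most 0.05 (limma). Of all genes 19.0% and 26.0% were higher by these rules. *Dnmt1* (ENSMUSG00000004099, chromosome 9, 20907209 to 20959888, minus strand), which copies methylation onto newly replicated DNA, was at 4.64, 1.49, 2.61 and 3.25 FPKM in the sham mice B607, B634, B636 and H249 and at 7.50 to 11.6 FPKM in AAN mice (median 9.71). The groups did not overlap, and the log2 fold change was 1.73 (SE 0.26, limma adjusted p = 0.000158). The de novo methyltransferase *Dnmt3a* was at 1.78, 0.782, 1.02 and 0.176 FPKM in sham mice and at 2.19 to 3.01 FPKM in AAN mice. The sham mouse H249 was far below the other sham mice, and without it the log2 fold change of 1.65 (SE 0.41, limma adjusted p = 0.00462) became 1.11. *Dnmt3b*, the other de novo enzyme, was low in both groups, at 0.184, 0.288, 0.270 and 0.270 FPKM in sham mice and 0.425 to 1.20 FPKM in AAN mice (log2 fold change 1.23, SE 0.26, limma adjusted p = 0.0017). The antisense gene *Dnmt3bos* overlaps *Dnmt3b*, and strand use in the counting is not given in the sources used here, so fragments of the pair cannot be told apart. *Dnmt3bos* was at 0.0630 ± 0.0421 FPKM (SD, n = 4 sham mice) against 0.572 ± 0.168 FPKM (SD, n = 6 AAN mice), which stood for no more than 0.749 fragments in a sham mouse and 6.33 in an AAN mouse on average. Its fitted log2 value of 2.04, the highest of all members, depended on the pseudocount and was 0.56 with 1 FPKM and 3.37 with 0.01 FPKM. *Dnmt3l*, a cofactor without catalytic activity, stayed under the filter at 0 to 0.0285 FPKM in sham mice and 0.0274 to 0.180 FPKM in AAN mice.

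The TET dioxygenases, which oxidize methylcytosine, had log2 fold changes of 0.46 to 1.05, against 1.23 to 1.73 for the DNA methyltransferases, a difference that was not tested. The low end is that of *Tet1*, which depends on the pseudocount, and *Dnmt3a* was at 1.11 without the sham mouse H249. *Tet3* was at 1.66, 0.995, 1.16 and 1.14 FPKM in sham mice and at 1.09 to 3.73 FPKM in AAN mice (median 2.99). One AAN mouse, B666, lay within the sham range while the other 5 were above it, and *Tet3* was called higher with a log2 fold change of 1.05 (SE 0.30, limma adjusted p = 0.0105). *Tet2* went from 1.06 ± 0.169 FPKM (SD, n = 4 sham mice) to 2.05 ± 0.488 FPKM (SD, n = 6 AAN mice), under the 2-fold limit (log2 fold change 0.87, limma adjusted p = 0.00322). *Tet1* was the lowest tested enzyme, at 0.0589 to 0.0869 FPKM in sham mice and 0.108 to 0.200 FPKM in AAN mice, with a log2 fold change of 0.46 and an adjusted p of 0.0867 from limma. Its sham level lies under the pseudocount, and the log2 fold change was 0.84 with 0.01 FPKM and 0.087 with 1 FPKM. Among 13 partners of DNA methylation that are no members, 7 were higher, 0 were lower and 11 had an adjusted p of at most 0.05 (median log2 fold change 1.04), where 35.8% and 55.4% of all genes were higher by these rules. Rescaled by the median of ratios, 3 of the 13 were higher, against 19.0% of all genes, and the median was 0.34. *Uhrf1*, which brings DNMT1 to hemimethylated DNA, was at 0.373 ± 0.175 FPKM (SD, n = 4 sham mice) against 4.73 ± 1.49 FPKM (SD, n = 6 AAN mice), or 3.37 on the log2 scale (SE 0.28, limma adjusted p = 1.45e-06). *Gadd45b*, linked to stress responses and DNA demethylation, had a log2 fold change of 3.69, and the lowest values were those of *Mbd3* (0.18, limma adjusted p = 0.381, and -0.58 after the median of ratios) and *Gadd45g* (0.71, limma adjusted p = 0.0557).

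Of the 4 members of Polycomb repressive complex 2, *Ezh2*, *Suz12* and *Eed* were higher in AAN mice, beside 35.8% of all genes, and *Ezh1* was not called. After the median of ratios the adjusted p from limma was 0.000923 for *Ezh2*, 0.17 for *Suz12* and 0.0921 for *Eed*. *Ezh2* (ENSMUSG00000029687, chromosome 6, 47530139 to 47595341, minus strand), the catalytic subunit of dividing cells, was at 0.492, 0.397, 0.563 and 0.409 FPKM in the sham mice B607, B634, B636 and H249 and at 1.36 to 2.27 FPKM in AAN mice (median 1.62). No AAN mouse came near the sham mice, and B666 was the highest. Its log2 fold change was 1.62 (SE 0.19, limma adjusted p = 2.10e-05). *Ezh1* (ENSMUSG00000006920, chromosome 11, 101191115 to 101226463, minus strand), the catalytic subunit of resting cells, was at 6.16, 2.99, 3.89 and 4.88 FPKM in sham mice and at 4.94 to 7.19 FPKM in AAN mice (median 6.40). The groups overlapped, and the log2 fold change was 0.49 (SE 0.21, limma adjusted p = 0.0573) and -0.26 after the median of ratios. In both groups *Ezh1* was at the higher level of the pair.

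The scaffold subunit *Suz12* (ENSMUSG00000017548, chromosome 11, 79993106 to 80034123, plus strand) was at 2.74, 3.23, 2.90 and 0.532 FPKM in sham mice and at 5.13 to 6.34 FPKM in AAN mice, a log2 fold change of 1.51 (SE 0.39, limma adjusted p = 0.00584). The sham mouse H249 was again far below the other 3, and without it the value was 0.94, under the 2-fold limit. *Eed*, which binds the finished H3K27 mark, went from 4.29 ± 0.976 FPKM (SD, n = 4 sham mice) to 9.30 ± 2.03 FPKM (SD, n = 6 AAN mice), or 1.09 on the log2 scale (SE 0.21, limma adjusted p = 0.000855). Leaving out the sham mouse B634 gave 0.998, short of the 2-fold limit. Of 21 further Polycomb subunits (PRC1 and accessory PRC2), 6 were higher, 0 were lower and 17 had an adjusted p of at most 0.05, with a median log2 fold change of 0.94. By both limits 35.8% of all genes were higher, and by adjusted p alone 55.4%. After the median of ratios 2 of the 21 were higher by both limits, against 19.0% of all genes, and the median of the 21 was 0.19. The highest were *Epop* (2.99, limma adjusted p = 4.83e-06) and *Cbx7* (1.53), and the lowest *Rbbp4* (0.36) and *Ring1* (0.42), neither of which passed the test.

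The promoters of *Ezh2*, *Suz12*, *Dnmt1* and *Suv39h1* are shown because the first 3 were the only members higher in AAN mice with an E2F motif in a promoter window, and because *Suv39h1* had the largest change of the members with a role. They were chosen after the motifs were searched. Promoters of genes used in S phase and mitosis often carry binding motifs of E2F factors or NF-Y near their starts. The sequences are stretches of RefSeq promoter windows of GRCm38.p6, written 5′ to 3′ on the strand of the gene. Capitals mark the E2F motifs (TTTCCCGC and TTTGGCGC) and the CCAAT box on either strand.
*Ezh2*, chr6:47595002-47595160, minus strand: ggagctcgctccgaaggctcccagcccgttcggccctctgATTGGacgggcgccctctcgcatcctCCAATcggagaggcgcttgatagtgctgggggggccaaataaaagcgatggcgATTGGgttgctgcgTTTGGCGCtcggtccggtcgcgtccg
*Suz12*, chr11:79992856-79993105, plus strand: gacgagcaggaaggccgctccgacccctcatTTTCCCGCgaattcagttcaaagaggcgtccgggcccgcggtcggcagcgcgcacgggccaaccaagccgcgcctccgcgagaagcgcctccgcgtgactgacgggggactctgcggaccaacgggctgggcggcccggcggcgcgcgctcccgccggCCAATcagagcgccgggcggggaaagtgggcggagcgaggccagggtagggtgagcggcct
*Dnmt1*, the third of 3 windows, chr9:20952577-20952606, minus strand: catgcgcggggcagcgTTTGGCGCgggctg
*Suv39h1*, the first of 2 windows, chrX:8074761-8074910, minus strand: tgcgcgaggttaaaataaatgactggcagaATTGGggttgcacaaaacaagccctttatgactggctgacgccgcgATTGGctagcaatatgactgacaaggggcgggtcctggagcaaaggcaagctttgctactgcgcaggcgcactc
The *Ezh2* stretch holds 1 E2F motif and 3 CCAAT boxes, that of *Suz12* 1 of each, that of *Dnmt1* 1 E2F motif, and that of *Suv39h1* 2 CCAAT boxes. The *Dnmt1* stretch is 30 bases of its window, and its E2F motif begins at base 34 of the transcript. The full window also holds 3 CCAAT boxes, and the first *Dnmt1* window holds 5 CCAAT boxes and 0 E2F motifs.

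RefSeq windows of 300 bases were matched by symbol for 63 of the 79 members (88 windows). An E2F motif was present on either strand in 5 of the 88 windows (5.68%), of *Ezh2*, *Suz12*, *Dnmt1*, *Brd7* and *Kmt5c*, against 1.56% of all 32851 windows. Of these 5 genes, *Ezh2*, *Suz12* and *Dnmt1* were higher in AAN mice, whereas *Brd7* and *Kmt5c* were not called. By gene, a motif was found in 3 of 22 members higher in AAN mice and in 2 of 38 tested members that were not, a difference that was not tested. The cell cycle element CHR (TTTGAA) was found in 11.4% of the member windows and 17.9% of all windows, and the CCAAT box (CCAAT) in 34.1% and 37.4%. These are matches of letters, and binding was not measured.

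The writers of H3K9 methylation all had an adjusted p of at most 0.05, beside 55.4% of all genes. In the fit 2 of the 4 reached 2-fold, beside 35.8% of all genes. After quantile normalization *Suv39h2* and *Ehmt1* were below 0. *Suv39h2*, the paralog of *Suv39h1*, was at 0.116 ± 0.0266 FPKM (SD, n = 4 sham mice) against 0.288 ± 0.0360 FPKM (SD, n = 6 AAN mice), or 0.85 on the log2 scale (SE 0.20, limma adjusted p = 0.00334). These levels stood for at most 8.43 and 19.6 fragments per mouse on average. The ratio of the mean levels was 2.49. The sham level is near the pseudocount of 0.1 FPKM, and the log2 fold change was 1.26 with 0.01 FPKM and 0.21 with 1 FPKM. *Ehmt2*, which dimethylates H3K9 in euchromatin, was one of the most abundant members. It was at 9.57, 6.97, 7.82 and 8.69 FPKM in sham mice and 13.1 to 18.6 FPKM in AAN mice, a log2 fold change of 1.05 (SE 0.15, limma adjusted p = 0.000117). Its partner *Ehmt1* was lower in level, 1.20 ± 0.349 FPKM (SD, n = 4) against 2.39 ± 0.271 FPKM (SD, n = 6), and just under the limit (log2 fold change 0.97). The 8 members grouped as writers of H3K4 methylation, whose activity was not measured, also all had an adjusted p of at most 0.05. Of these, *Setd7*, *Kmt2d*, *Kmt2a* and *Kmt2b* were called higher, where 55.4% and 35.8% of all genes were higher by these rules. On the scale of the median of ratios *Setd7* alone of the 8 had an adjusted p of at most 0.05, against 26.0% of all genes, and their median was 0.25. *Kmt2a* was at 2.01 ± 0.694 FPKM (SD, n = 4 sham mice), and at 4.80 to 6.87 FPKM in 5 of the AAN mice, but at 1.23 FPKM in B630, below all sham mice. Its log2 fold change was 1.18 (SE 0.42, limma adjusted p = 0.0292). Of 12 further subunits of the H3K4 methyltransferase complexes, 1 was higher, *Psip1* (log2 fold change 1.53, limma adjusted p = 2.54e-05), beside 35.8% of all genes. The median of the 12 was 0.54, or -0.21 after the median of ratios.

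Of 10 histone acetyltransferases, 7 had an adjusted p of at most 0.05 and the median log2 fold change was 0.88, with *Kat6b* alone past 2-fold, beside 55.4% and 35.8% of all genes. With the median of ratios 0 of the 10 had an adjusted p of at most 0.05 (limma) and the median was 0.14. By this rule 26.0% of all genes were higher and 21.0% lower. *Kat6b* was low, at 0.480 ± 0.161 FPKM (SD, n = 4 sham mice) against 1.07 ± 0.198 FPKM (SD, n = 6 AAN mice), with a log2 fold change of 1.04 (SE 0.22, limma adjusted p = 0.00168) that was -0.19 after quantile normalization. *Ep300*, encoding p300, was at 4.11, 1.55, 1.81 and 1.71 FPKM in the sham mice B607, B634, B636 and H249 and at 3.04 to 5.25 FPKM in AAN mice. The sham mouse B607 lay inside the AAN range and the other 3 below it (log2 fold change 0.87, limma adjusted p = 0.0146). *Crebbp*, encoding CBP, had a log2 fold change of 0.94 and did not overlap between the groups. *Kat5*, the most abundant member in both groups, was at 13.7 ± 3.14 FPKM (SD, n = 4 sham mice) against 25.4 ± 2.86 FPKM (SD, n = 6 AAN mice), or 0.90 on the log2 scale.

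The 6 arginine methyltransferases among the members, which include neither *Prmt1* nor *Carm1*, had a median of 0.44, and -0.29 after the median of ratios. Of these, 5 lay below the median of all genes. *Prmt2*, a coactivator with weak methyltransferase activity, was the exception. It was at 2.01, 0.885, 1.06 and 1.73 FPKM in sham mice and at 3.10 to 5.01 FPKM in AAN mice, a log2 fold change of 1.52 (SE 0.25, limma adjusted p = 0.000247). *Prmt5*, the main enzyme of symmetric arginine dimethylation, was at 9.67, 5.00, 6.20 and 8.25 FPKM in sham mice and at 5.35 to 11.0 FPKM in AAN mice. The groups overlapped nearly in full, with a log2 fold change of 0.24 (SE 0.24, limma adjusted p = 0.40), which turned to -0.51 after the median of ratios (limma adjusted p = 0.034). The other 4 members had log2 fold changes of 0.37 to 0.52 in the deposited values, all of which turned negative after the median of ratios, -0.37 to -0.21.

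*Setd3*, a SET domain enzyme that methylates actin rather than histones, had the lowest value of the writers. It was at 11.2, 7.76, 9.31 and 11.5 FPKM in sham mice and at 7.33 to 12.3 FPKM in AAN mice, with a log2 fold change of 0.05 (SE 0.19, limma adjusted p = 0.809), which was -0.70 after the median of ratios (limma adjusted p = 0.00348). *Setd4*, by contrast, went from 0.248 ± 0.0896 FPKM (SD, n = 4 sham mice) to 0.723 ± 0.197 FPKM (SD, n = 6 AAN mice), with a log2 fold change of 1.25 (SE 0.25, limma adjusted p = 0.0012). None of the 3 writers of H4K20 methylation reached 2-fold, and *Kmt5b* alone had an adjusted p of at most 0.05 (log2 fold change 0.88). Of all genes 35.8% were higher by both limits and 55.4% by adjusted p alone. *Kmt5a*, which monomethylates H4K20 in mitosis, was at 6.02, 1.50, 6.88 and 6.13 FPKM in sham mice and at 5.90 to 8.04 FPKM in AAN mice. The sham mouse B634 was far below all other mice, and the other 3 sham mice lay within the AAN range (log2 fold change 0.59, limma adjusted p = 0.168, and 0.09 without B634). *Kmt5c*, a writer of the higher H4K20 marks, had a log2 fold change of 0.27 (limma adjusted p = 0.466). *Dot1l*, the enzyme of H3K79 methylation, went from 2.08 ± 1.12 FPKM (SD, n = 4 sham mice) to 3.77 FPKM (2.79 to 4.47 FPKM in the AAN mice), under 2-fold (log2 fold change 0.97, limma adjusted p = 0.0163).

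**Figure D2:**
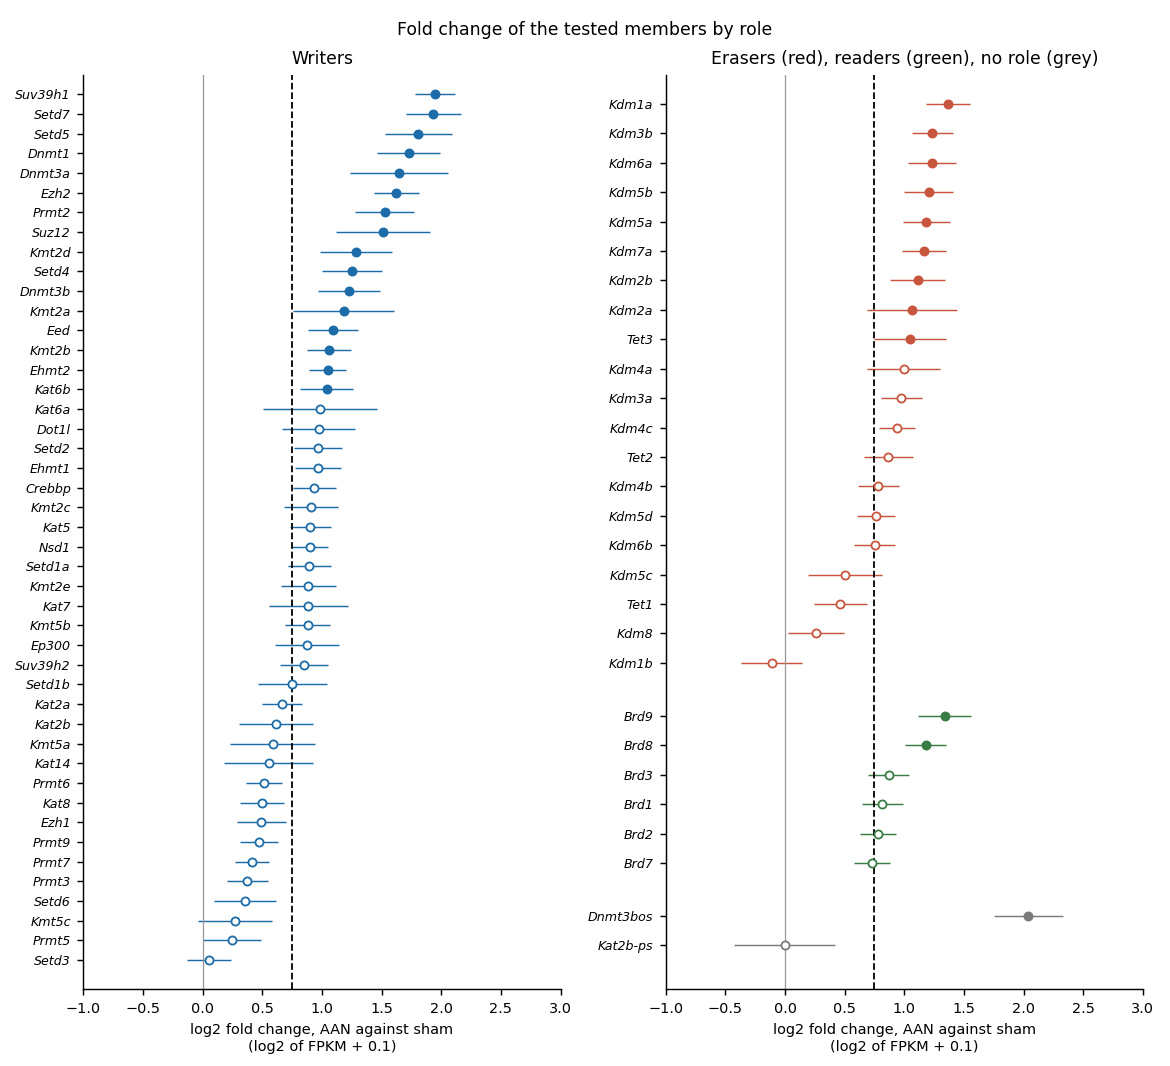
Log2 fold change of 73 of the 74 tested members, with its standard error, for writers (left) and for erasers, readers and members with no role (right). Filled points passed both limits, and the dashed line is the median of all genes tested, 0.75. *Suv39h1*, *Setd7* and *Setd5* lead the writers and *Kdm1a* the erasers, while *Setd3* and *Kdm1b* lie near 0.

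Among the erasers, *Kdm1a* (ENSMUSG00000036940, chromosome 4, 136550540 to 136602723, minus strand), an amine oxidase that removes methyl groups from H3K4, had the largest change. It was at 2.53, 1.50, 1.38 and 2.04 FPKM in the sham mice B607, B634, B636 and H249 and at 4.35 to 5.60 FPKM in AAN mice (median 4.82). The groups did not overlap, and the log2 fold change was 1.37 (SE 0.18, limma adjusted p = 6.02e-05). Its paralog *Kdm1b*, which acts within gene bodies, had the lowest log2 fold change of all members, -0.11 (SE 0.25, limma adjusted p = 0.711). It was at 5.82, 2.60, 3.14 and 3.52 FPKM in sham mice and at 2.43 to 5.13 FPKM in AAN mice, with the sham mouse B607 and the AAN mouse B614 above the rest. After the median of ratios its AAN mice were all below its sham mice, at -0.86 (limma adjusted p = 0.00484), and without B607 the value in the deposited scale was 0.11. *Kdm1b* overlaps the genes *Dek* and *Tpmt*, whose fragments may be shared with it.

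The H3K27 demethylases were both higher by adjusted p, and *Kdm6a* reached 2-fold, beside 55.4% and 35.8% of all genes. *Kdm6a*, the X-linked demethylase UTX, was at 1.77, 0.930, 0.954 and 1.37 FPKM in sham mice and at 2.47 to 3.68 FPKM in AAN mice, a log2 fold change of 1.23 (SE 0.20, limma adjusted p = 0.000287). *Kdm6b*, the inducible JMJD3, was at 4.40 ± 1.02 FPKM (SD, n = 4 sham mice) against 7.38 ± 0.937 FPKM (SD, n = 6 AAN mice), or 0.75 on the log2 scale (SE 0.17, limma adjusted p = 0.00267), equal to the median of all genes. The other called erasers were *Kdm3b* (1.23) and *Kdm7a* (1.17), which act on H3K9, *Kdm5b* (1.20) and *Kdm5a* (1.18), which remove H3K4 methylation, and *Kdm2b* (1.11) and *Kdm2a* (1.07), which act on H3K36. *Kdm3b* was the most abundant eraser in both groups, at 5.42 ± 1.31 FPKM (SD, n = 4) and 12.7 ± 1.25 FPKM (SD, n = 6). *Kdm2a* overlapped between the groups, at 0.643 to 1.88 FPKM in sham mice and 1.61 to 5.33 FPKM in AAN mice. The other 2 KDM5 demethylases of H3K4 were not called. The Y-linked *Kdm5d* was at 0.828 ± 0.0277 FPKM (SD, n = 4) and 1.48 ± 0.183 FPKM (SD, n = 6) without overlap, under 2-fold (log2 fold change 0.76, limma adjusted p = 0.00158). The X-linked *Kdm5c* overlapped between the groups (log2 fold change 0.50, limma adjusted p = 0.174). *Kdm8*, first described as an H3K36 demethylase, was at 1.32 ± 0.302 FPKM (SD, n = 4) and 1.61 ± 0.440 FPKM (SD, n = 6), with a log2 fold change of 0.26 that turned to -0.46 after the median of ratios.

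The readers bind acetylated lysines through a bromodomain, and 2 of the 7 tested were higher, beside 35.8% of all genes. *Brd9*, a subunit of a SWI/SNF remodelling complex, was at 4.77, 5.95, 8.89 and 6.23 FPKM in sham mice and at 10.9 to 21.5 FPKM in AAN mice (median 15.5), a log2 fold change of 1.34 (SE 0.22, limma adjusted p = 0.00032). *Brd8*, a subunit of the acetyltransferase complex built on KAT5, went from 2.01 ± 0.411 FPKM (SD, n = 4 sham mice) to 4.63 ± 0.511 FPKM (SD, n = 6 AAN mice), or 1.18 on the log2 scale (limma adjusted p = 0.00011). Both did not overlap between the groups. *Brd7*, of another SWI/SNF complex, had a log2 fold change of 0.73, next to the median of all genes. *Brd2* and *Brd3*, which bind acetylated histones through paired bromodomains, did not reach 2-fold. *Brd2* was at 9.24 ± 1.96 FPKM (SD, n = 4) and 15.7 ± 0.642 FPKM (SD, n = 6), with a log2 fold change of 0.78, and *Brd3* had a log2 fold change of 0.87. Of 31 readers that are no members, 11 were higher and 0 lower (median 0.90), beside 35.8% and 3.43% of all genes. After the median of ratios 2 of the 31 were higher (median 0.18), against 19.0% of all genes. *Atad2* (2.82), a bromodomain protein of replicating chromatin, was the highest.

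By role, 16 of 45 tested writers, 9 of 20 erasers and 2 of 7 readers were higher, which is 35.6%, 45.0% and 28.6%, beside the 35.8% of all genes. The median log2 fold changes were 0.90, 0.99 and 0.82, within a narrow band above the 0.75 of all genes. The spread within a role was far wider than these differences, from 0.05 to 1.95 in writers, -0.11 to 1.37 in erasers and 0.73 to 1.34 in the 6 readers reported here. Within each mouse, the median log2 level of the erasers minus that of the writers was -0.91 to -0.10 (sham) and -0.53 to -0.16 (AAN), and that of the readers minus the writers 0.44 to 0.96 and 0.23 to 0.91. The ranges overlapped for both differences. The median of the writers minus the median of all genes in the same mouse was 0.14 to 0.77 in the sham group and 0.077 to 0.45 in the AAN group. Of further enzymes and proteins outside the rule, 2 of 16 writers and 2 of 8 erasers were higher and 0 were lower. Of all genes 35.8% were higher and 3.43% lower. *Hr*, a JmjC demethylase, was the highest of them, at 0.0550 ± 0.0118 FPKM (SD, n = 4 sham mice) against 1.44 ± 0.285 FPKM (SD, n = 6 AAN mice). Its fitted log2 value of 3.29 depends on the pseudocount, since its sham level lies under it.

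**Figure D3:**
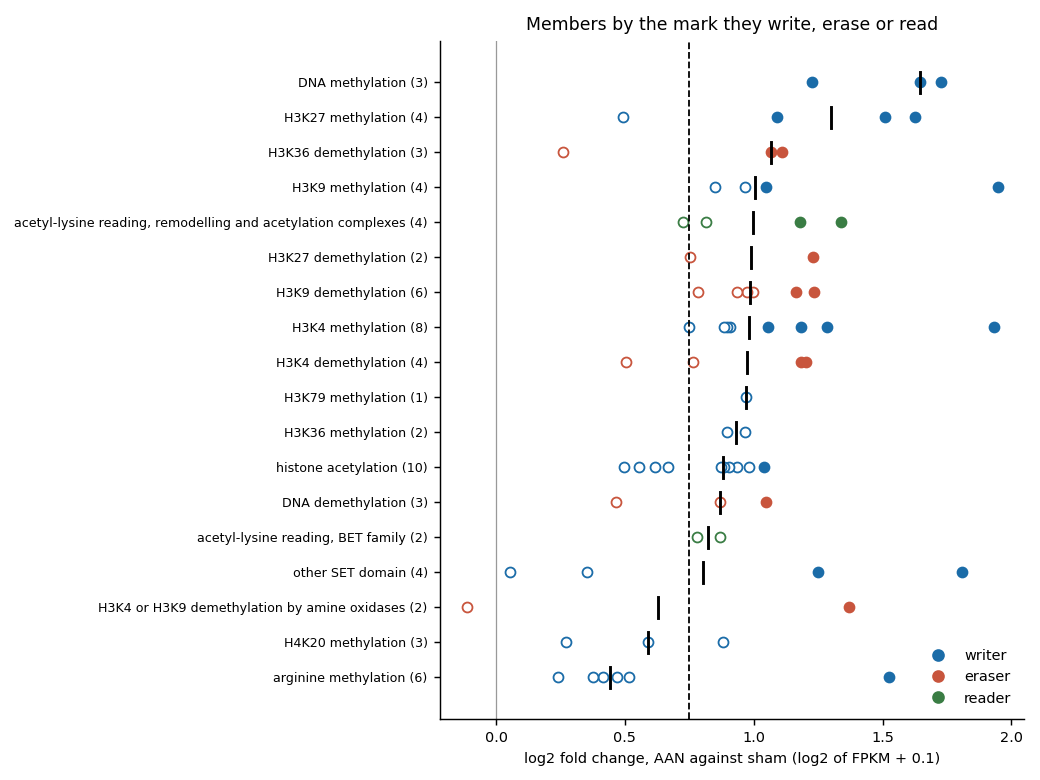
Log2 fold change of 71 of the 72 tested members with a role, grouped by the mark they write, erase or read (number of members shown in parentheses), with the median of each group as a black bar and the median of all genes, 0.75, as a dashed line. Filled points passed both limits. DNA methylation (1.65) and H3K27 methylation have the highest medians, and H4K20 methylation (0.59) and arginine methylation (0.44) the lowest.

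Rescaling by the median of ratios changed the count of called members more than leaving out any single mouse did. On that scale 4 members passed both limits, *Dnmt3bos* (1.59), *Suv39h1* (1.24, limma adjusted p = 6.23e-05), *Setd7* (1.20, limma adjusted p = 0.000151) and *Setd5* (1.12, limma adjusted p = 0.00241), against 19.0% of all genes. Of these, *Dnmt3bos* passed the filter only through its AAN level. In the deposited values its log2 value was 0.56 with a pseudocount of 1 FPKM and 3.37 with 0.01 FPKM. At an adjusted p of at most 0.05 alone, 14 members were higher, against 26.0% of all genes, and 4 were lower, against 21.0% of all genes. The 14 included *Dnmt1* (0.98), *Ezh2* (0.95), *Prmt2* (0.80) and 6 erasers from *Kdm1a* (0.63) to *Kdm7a* (0.44). Of the 28 members called in the deposited values, 14 had an adjusted p above 0.05 on this scale. The 4 lower members were *Kdm1b*, *Setd3*, *Prmt5* and *Prmt3*, 3 of which were above 0 in the deposited values. The median over members was 0.19 for writers, 0.25 for erasers and 0.07 for readers on this scale, beside 0.06 over all genes.

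**Figure D4:**
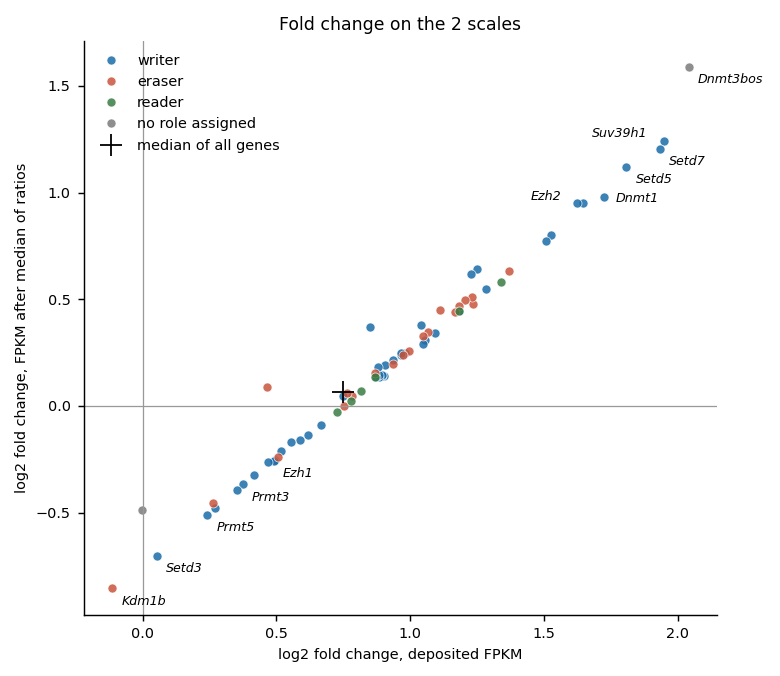
Log2 fold change of 73 of the 74 tested members in the deposited FPKM (horizontal) and after rescaling by the median of ratios (vertical), coloured by role, with the median of all genes as a cross (0.75 and 0.06). *Suv39h1*, *Setd7*, *Setd5* and *Dnmt3bos* lie above 1 on both scales, while *Kdm1b* and *Setd3* lie near 0 on the horizontal scale and at -0.86 and -0.70 on the vertical one.

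Differences between 2 members within the same mouse carry no scaling factor of that mouse other than through the pseudocount. Of 12 pairs of paralogs or opposing enzymes, 3 differed between the groups (exact two-sided permutation test, p = 0.00476 each, adjusted p = 0.019 over the 12 pairs). The log2 difference *Ezh2* minus *Ezh1* was -3.40, -2.64, -2.59 and -3.29 in the sham mice B607, B634, B636 and H249 and -2.31 to -1.47 in AAN mice, so *Ezh2* gained 1.13 on *Ezh1* (SE 0.23). *Ezh2* also gained 0.87 on *Kdm6b*, the demethylase of its mark (SE 0.20), and *Suv39h1* gained 1.10 on *Suv39h2* (SE 0.13). In each of these 3 pairs the 6 AAN mice were all above the highest sham mouse. With a pseudocount of 0.01 the count of pairs was again 3. The log2 fold changes of *Suv39h1* and *Suv39h2* were then 2.08 and 1.26, closer together than with 0.1, so the gain of *Suv39h1* was smaller. With a pseudocount of 1, where *Ezh2* and *Suv39h2* lie near or under it, the gains of *Ezh2* were 0.44 and 0.20, that of *Suv39h1* was 1.02, and 0 of the 12 pairs kept an adjusted p of at most 0.05 in the exact test. At least 2 of the 12 pairs must reach the smallest possible p for that, and *Suv39h1* minus *Suv39h2* alone did (exact test, adjusted p = 0.0571). The count was also 0 without the sham mouse B607, where at least 3 pairs must reach the smallest p and 2 did, and the 3 gains were then 0.99 (*Ezh2* on *Ezh1*), 0.76 (*Ezh2* on *Kdm6b*) and 1.17 (*Suv39h1*). It was 5 without H249, the sham mouse with the low *Dnmt3a* (exact test, smallest adjusted p = 0.0286). The groups then also separated for *Dnmt1* minus *Dnmt3a* and for *Kdm6b* minus *Kdm6a*.

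The difference *Kdm6b* minus *Kdm6a* was -0.48 (exact two-sided permutation test, p = 0.0429, adjusted p = 0.129), with 4 of 6 AAN mice below all sham mice. None of the other 7 pairs reported here had an adjusted p of at most 0.05 (exact test). *Dnmt3a* minus *Tet2* was 0.62, -0.24, 0.15 and -2.31 in the sham mice B607, B634, B636 and H249 and -0.34 to 0.88 in AAN mice. The difference of 0.78 (SE 0.55, exact two-sided permutation test, p = 0.186, adjusted p = 0.446) rested largely on H249, far below the other mice. *Ehmt2* minus *Ehmt1* moved by 0.08 (SE 0.16), *Ep300* minus *Crebbp* by -0.06 (SE 0.23) and *Kat2a* minus *Kat2b* by 0.05 (SE 0.43). *Dnmt1* minus *Dnmt3a* moved by 0.08 (SE 0.50), where the sham mouse H249 was at 3.60 and the other sham mice at 0.85 to 1.33. The AAN mice were at 1.65 to 2.17, above all sham mice but H249. The errors of the pairs with *Dnmt3a* or *Kmt5a* were 0.43 to 0.59, so differences of that size were not detectable in them.

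**Figure D5:**
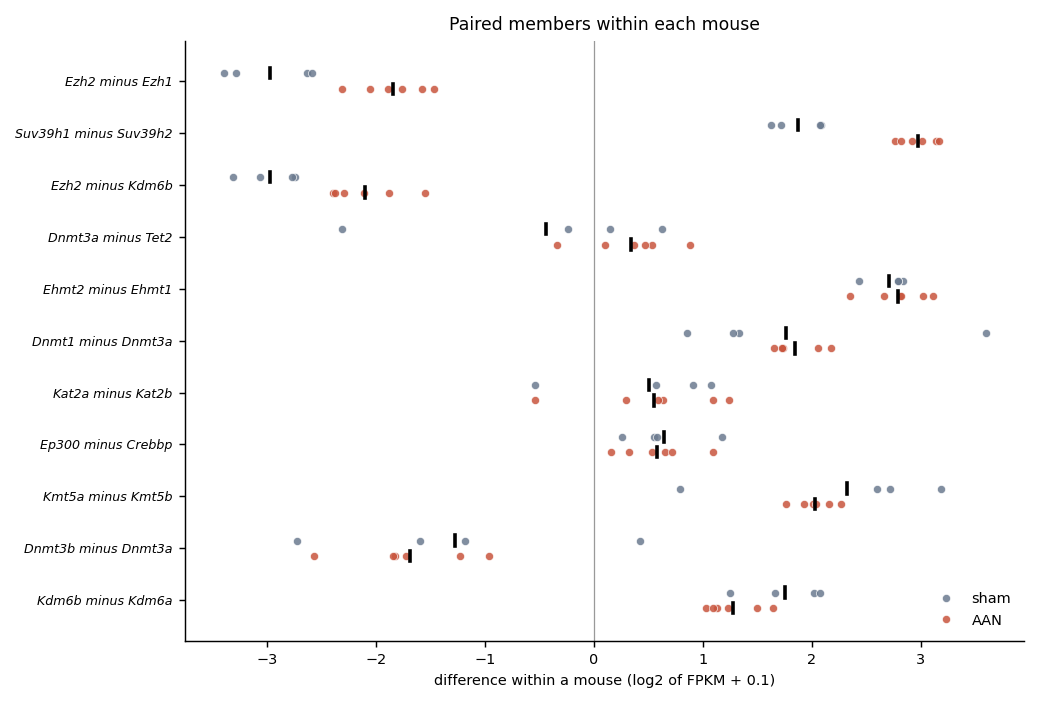
Difference in log2(FPKM + 0.1) between 2 members within each mouse, for 11 of the 12 pairs, with sham mice in grey (n = 4), AAN mice in red (n = 6) and group means as black bars. The groups separate for *Ezh2* minus *Ezh1*, *Suv39h1* minus *Suv39h2* and *Ezh2* minus *Kdm6b*, and overlap for the others.

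Single mice weighed on many of the values. Over the 72 tested members with a role, the sham mouse B607 had the highest level of the sham mice in 52 and B634 the lowest in 56. B607 had the lowest mitochondrial share of the sham mice (39.5%) and B634 the highest (61.4%). After the median of ratios B607 was still the highest in 43 members, and B634 the lowest in 26. Without B607 the count of members higher in AAN was 42, and without B634 it was 20. Of the 28 called members, 10 lost the call when 1 of the 10 mice was left out, and *Kmt2a* lost it with each of 7 mice. Without B634, *Kmt2d* (0.91), *Kmt2b* (0.90), *Kdm2b* (0.98), *Ehmt2* (0.97) and *Eed* were under 2-fold. *Kdm2a* lost its call with each of 4 mice, H249 among them, as did *Tet3* and *Kat6b*, B634 among them. The calls of *Suv39h1*, *Setd7*, *Setd5*, *Dnmt1*, *Dnmt3a*, *Ezh2*, *Prmt2* and *Kdm1a* stood whichever mouse was left out.

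The 5 members under the filter were *Dnmt3l*, *Kdm4d*, *Kdm4dl*, *Dnmt3aos* and *Kdm6bos*. *Kdm4d*, a testis-enriched H3K9 demethylase, was listed at 0 in 3 of 4 sham mice and was at 0.0134 to 0.171 FPKM in AAN mice. *Kdm4dl*, *Dnmt3aos* and *Kdm6bos* were listed at 0 in all sham mice, and at up to 0.297, 0.177 and 0.219 FPKM in AAN mice. Of the tested members, 27 overlap another gene in the deposited values, so part of their fragments may belong to that gene.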

How the data were processed

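RNA from the kidney cortex of 4 sham and 6 AAN mice was sequenced as paired-end TruSeq libraries. The authors filtered the reads, aligned them with Hisat2 2.0.4 (genome GRCm38.p4) and derived FPKM for each gene with Stringtie 1.3.0, and the deposited values are these FPKM with no further scaling named. The annotation release and strand use are not given in the sources used here. Symbols and positions came from GENCODE mouse release M21 on GRCm38. Since the files hold no counts, limma 3.58.1 in R 4.3.3 (trend, robust) was run on log2(FPKM + 0.1). Rescaling kept the genes of the deposited scale. Single values were compared by exact two-sided permutation over 210 splits, within Python 3.11.15. Low FPKM of genes with 1 transcript were whole multiples of 1 fragment (94.6% to 96.9% within 0.05), which gave the depth. Fragments per gene are upper limits that cover counting error only. The labels do not name litters or batches, so p-values measure the spread between these mice. In simulated data for sham against AAN, 80.4% of 179 changed genes were found, with 8 false calls among 15187 genes tested. There 200 genes were changed, up and down alike, each by more than 2-fold, with independent noise. The simulation had no shift of most genes, so its rates do not apply to the calls reported here. Named members were the 25 called members with the largest change, the 3 lowest of each role, those under the filter and a fixed set of Polycomb, DNA methylation, acetyltransferase and paired members. Others, such as *Kat5*, *Kat6b*, *Kdm5c* and *Hr*, were named by the list rule or after their values were seen. Members, roles and lists were chosen with earlier results of these data known. Alternatives were other pseudocounts, filters and scalings, no fold limit, no trend, mice with B tags alone and each mouse left out. The median of ratios with each mouse left out was added after seeing the data. Of the members, 1 is counted in the totals and adjustments but is not reported here.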

Additional observations from a re-analysis of the deposited data

Results flagged for a closer look

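In 11 of the 120 groups of mice examined, 1 mouse stood apart from the others of its group by Dixon's test at the 95% level, where chance gives about 1 in 20, or 6. Among sham mice, B607 was high for *Ep300* (4.11 FPKM, the others 1.55 to 1.81), *Kdm2b* (0.869 FPKM, the others 0.346 to 0.417) and *Kdm5a* (1.54 FPKM, the others 0.874 to 0.972), and low for the log2 difference *Ehmt2* minus *Ehmt1* (2.43, the others 2.79 to 2.84). The sham mouse H249 was low for *Kdm8* (0.871 FPKM, the others 1.42 to 1.50) and listed at 0 for *Dnmt3bos* (the others 0.0795 to 0.0879 FPKM). The sham mouse B634 was low for *Kmt5a* (1.50 FPKM, the others 6.02 to 6.88). Among AAN mice, B614 was low for *Ehmt2* (13.1 FPKM, the others 17.0 to 18.6) and *Kat2a* (8.55 FPKM, the others 13.0 to 13.9), B630 was low for *Kmt2a* (1.23 FPKM, the others 4.80 to 6.87), and B666 was high for *Ezh2* (2.27 FPKM, the others 1.36 to 1.66).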

How the results depend on the processing

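The count of 28 members higher in AAN was 9 with a pseudocount of 1, 4 with the median of ratios, 1 with quantile normalization and 58 with no fold limit. It was 20 to 42 with 1 mouse left out and 23 to 34 under the other alternatives. The count of lower members was 0 under each alternative. After the median of ratios the count was 3 to 6 with 1 mouse left out, an alternative chosen after seeing the data. The median of writers (0.90) was 0.19 with the median of ratios, -0.019 with quantile normalization and 0.80 to 1.09 with 1 mouse left out. That of erasers (0.99) was 0.73 with a pseudocount of 1, 0.25, 0.030 and 0.88 to 1.10, and that of readers (0.82) was 0.070, 0.023 and 0.73 to 0.98. The count of 3 pairs was 0 with a pseudocount of 1, 0 after quantile normalization, 0 among mice with B tags and 0 (without B607) to 5 (without H249) with 1 mouse left out. Among mice with B tags the smallest exact p is 0.0179, so at least 5 of the 12 pairs would have to reach it, and 4 did. The 0 there says little about the pairs. Of the 74 tested members, 18 turned from above to below 0 after the median of ratios and 33 after quantile normalization. Among those named by the rule and reported here, the members that did so after the median of ratios were *Brd7* (-0.027), *Ezh1* (-0.26), *Kat2a* (-0.091), *Kat2b* (-0.14), *Kdm8* (-0.46), *Kmt5a* (-0.16), *Kmt5c* (-0.48), *Prmt5* (-0.51) and *Setd3* (-0.70). After quantile normalization they were *Crebbp* (-0.085), *Dnmt3b* (-0.023), *Ehmt1* (-0.090), *Ep300* (-0.030), *Ezh1* (-0.28), *Kat2b* (-0.093), *Kdm2b* (-0.11), *Kdm8* (-0.81), *Kmt5a* (-0.16), *Kmt5b* (-0.27), *Kmt5c* (-0.47), *Prmt5* (-0.42), *Setd3* (-0.54), *Suv39h2* (-0.32), *Tet1* (-0.61) and *Tet2* (-0.21), while Ep300 minus Crebbp (0.055) and Kmt5a minus Kmt5b (0.11) turned from below to above 0. Among mice with B tags *Kdm8* was at -0.019 and Dnmt3b minus Dnmt3a at 0.15. Ep300 minus Crebbp was 0.018 with a pseudocount of 1, and Dnmt1 minus Dnmt3a was -0.063 with 0.01. With 1 mouse left out, the range spanned 0 for *Kdm1b* (-0.27 to 0.11), *Setd3* (-0.057 to 0.15) and for the pairs Ehmt2 minus Ehmt1 (-0.013 to 0.17), Kat2a minus Kat2b (-0.30 to 0.27), Ep300 minus Crebbp (-0.19 to 0.12), Dnmt1 minus Dnmt3a (-0.22 to 0.69) and Dnmt3b minus Dnmt3a (-0.90 to 0.15), none of which had an adjusted p of at most 0.05 with all mice. The cause of these shifts was not tested. No paired analysis was possible because no label links a sham mouse to an AAN mouse by number.

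The values are FPKM and not counts, so a count model was not run. With 4 sham mice, 1 mouse can decide a call near the 2-fold limit. Members under about 0.3 FPKM rest on few fragments. Fragments shared between overlapping genes, cell composition and RNA content per cell cannot be told apart in whole cortex.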
